A study of Rattus norvegicus with 24 samples.

Results

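A set of 7 genes linked to the magnocellular neurons of the hypothalamus was followed across 4 structures of the rat. They are Pdyn, Gal, Cartpt, Vgf, Cck, Calb1 and Giot1, chosen by their gene symbol in the annotation of the array, and all 7 were found among the 14217 named genes. They were read by 8 probe sets, 2 for Pdyn and 1 for each of the others. The brighter Pdyn probe set stands for the gene and the dimmer one serves as a check. The set is wider than neuropeptides, since Calb1 encodes a calcium-binding protein and Giot1 a zinc finger protein.

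The 24 arrays came from male rats of 2 inbred strains, the spontaneously hypertensive rat (SHR) and the normotensive Wistar-Kyoto rat (WKY). In SHR, 2 hypothalamic nuclei were measured, the supraoptic (SON, 4 arrays) and the paraventricular (PVN, 5 arrays). A further 5 SHR arrays held the pituitary's neurointermediate lobe (NIL), and 5 the rostral ventrolateral medulla (RVLM), a brainstem region that drives sympathetic outflow. For WKY, 5 arrays of the RVLM were used and none of another structure. Each array carried RNA of 1 structure pooled from 5 rats, for which the labels name no treatment, and which were aged 10 to 13 weeks (10 to 12 weeks for NIL array 2), so that n counts pools. Values are the deposited intensity, a linear signal per probe set, and array medians lay between 35.9 and 46.5.

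Magnocellular neurons are the large cells of the SON and PVN that make vasopressin or oxytocin and send their axons to the posterior pituitary, where both hormones enter the blood. The same cells hold smaller amounts of other peptides, packed into the same granules. Dynorphins, cut from the Pdyn precursor, accompany vasopressin and restrain its release through kappa opioid receptors. Galanin (Gal) and cholecystokinin (Cck) are further co-transmitters of these cells, and Cartpt encodes the feeding-related peptide CART. Vgf encodes a precursor of the regulated secretory pathway that many neurons make in response to growth factors and activity. Messenger RNAs of vasopressin, oxytocin and dynorphin are also known from the axons that end in the posterior pituitary.

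The structures were checked on marker genes. Avp and Oxt, the vasopressin and oxytocin genes, had summed intensities of 7331 to 10518 in the PVN, 8776 to 10405 in the SON, 2386 to 3390 in the NIL and 13.3 to 39.4 over both sets of RVLM arrays. The 4 measured markers of melanotrophs, the hormone cells of the intermediate lobe, summed to 2517 to 3619 in the NIL and to at most 247 elsewhere. The 7 markers of the anterior pituitary summed to 2947 to 16733 on the NIL arrays and to at most 238 elsewhere, with wide differences between the NIL pools. The 4 measured markers of adrenergic and serotonin neurons of the medulla did not single out the RVLM by their sum, 316 to 486 in SHR against 445 to 579 in the SON. Th had 122 ± 11.8 in the SHR RVLM and 476 ± 54.9 in the SON. Pnmt, Dbh and Slc6a4 had their highest means in the RVLM (Pnmt 192 ± 50.8 in SHR, 7.39 ± 7.11 in the SON). SHR PVN replicate 3 (PVN array 3) stood apart: it differed from the other PVN arrays in the direction of the SON for markers of parvocellular neurons, lateral hypothalamus and meninges, as detailed beside the results it touches.

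Of the 5 genes with a RefSeq promoter entry, 3 share a regulatory motif, and their upstream sequences are shown for that reason. The motif is TGACGTCA, the palindromic cAMP response element (CRE) bound by CREB factors. It was found in the 250 bases before the annotated start of Cartpt, Giot1 and Vgf, against 1.7% of 27457 rat genes with such a window. The CRE begins 90 bases before the start in Vgf, 142 in Cartpt and 248 in Giot1. TATAAA, the letters of the TATA box, was present in Gal, Pdyn, Giot1 and Vgf, against 13.1% of all windows. It begins 41 bases before the start in Gal and Vgf, 13 in Pdyn and 53 in Giot1, and whether it works as a TATA box there was not tested. The AP-1 motif TGANTCA was in none of the 5 and in 6.36% of all windows. Both strands were searched, no motif letters overlap another motif in these windows apart from the TATA box of Vgf, which reads on both strands, and a match is a description of letters only. Cck and Calb1 were not matched in that table. The sequences run 5′ to 3′ on the coding strand (all minus strand, RefSeq, build GRCr8), with CRE and TATA box in capitals.
Vgf, chr12:25277021-25277270: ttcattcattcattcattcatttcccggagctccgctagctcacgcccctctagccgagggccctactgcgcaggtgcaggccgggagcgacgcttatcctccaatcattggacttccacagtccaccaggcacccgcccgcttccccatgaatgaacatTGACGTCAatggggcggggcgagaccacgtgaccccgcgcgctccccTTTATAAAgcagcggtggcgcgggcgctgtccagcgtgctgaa
Cartpt, chr2:32991236-32991485: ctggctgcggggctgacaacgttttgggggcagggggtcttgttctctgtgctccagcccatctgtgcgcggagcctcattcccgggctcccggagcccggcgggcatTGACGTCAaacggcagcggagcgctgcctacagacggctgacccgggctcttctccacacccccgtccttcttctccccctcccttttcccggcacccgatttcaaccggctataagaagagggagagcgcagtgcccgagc
Giot1, chr7:10886966-10887215: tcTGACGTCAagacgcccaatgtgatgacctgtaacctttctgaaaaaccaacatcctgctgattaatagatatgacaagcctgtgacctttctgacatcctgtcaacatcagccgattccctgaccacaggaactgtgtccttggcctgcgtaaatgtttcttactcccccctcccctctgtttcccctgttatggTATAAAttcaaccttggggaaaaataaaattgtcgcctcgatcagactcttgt
For Gal and Pdyn, which held no CRE in their window, the last 60 bases before the start are given.
Gal, chr1:210084573-210084632: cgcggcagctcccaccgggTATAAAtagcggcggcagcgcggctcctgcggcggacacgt
Pdyn, chr3:137366504-137366563: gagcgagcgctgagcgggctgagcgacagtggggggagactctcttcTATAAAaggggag

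Pdyn, the dynorphin precursor, was highest in the SON. Its intensities there were 2581, 2019, 2551 and 2438 on arrays 1 to 4. In the PVN they were 768, 610, 1497, 586 and 586 on arrays 1 to 5, and in the NIL 680, 485, 641, 723 and 544. All SON arrays lay above all arrays of the other structures, and 3 of the 5 PVN arrays lay within the range of the NIL. In the RVLM the gene was at 57.5 to 99.7 in SHR and 63 to 106 in WKY. The mean intensity was 809 ± 392 (SD, n = 5) in the PVN and 2397 ± 260 (n = 4) in the SON. Fitted on the log2 scale after alignment of the array medians, as all folds here, the PVN was 3.11-fold below the SON, a difference of −1.64 (SE 0.243, limma adjusted p = 0.000181). Without PVN array 3 it was −1.90. The NIL, with a mean intensity of 615 ± 98.3 (n = 5), was 3.96-fold below the SON by the fit (log2 1.98, SON minus NIL, adjusted p = 5.45e-07). The PVN and NIL were neighbours in the order and did not pass the test (log2 0.35, 95% interval −0.13 to 0.82, adjusted p = 0.206), and without PVN array 3 the difference was 0.08. Pdyn was thus ordered SON, then PVN and NIL, then RVLM, with NIL 7.45-fold above the SHR RVLM (adjusted p = 2.46e-10). In bulk tissue, fewer cells of a type and less RNA per cell cannot be told apart, here and in every result that follows.

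**Figure D1:**
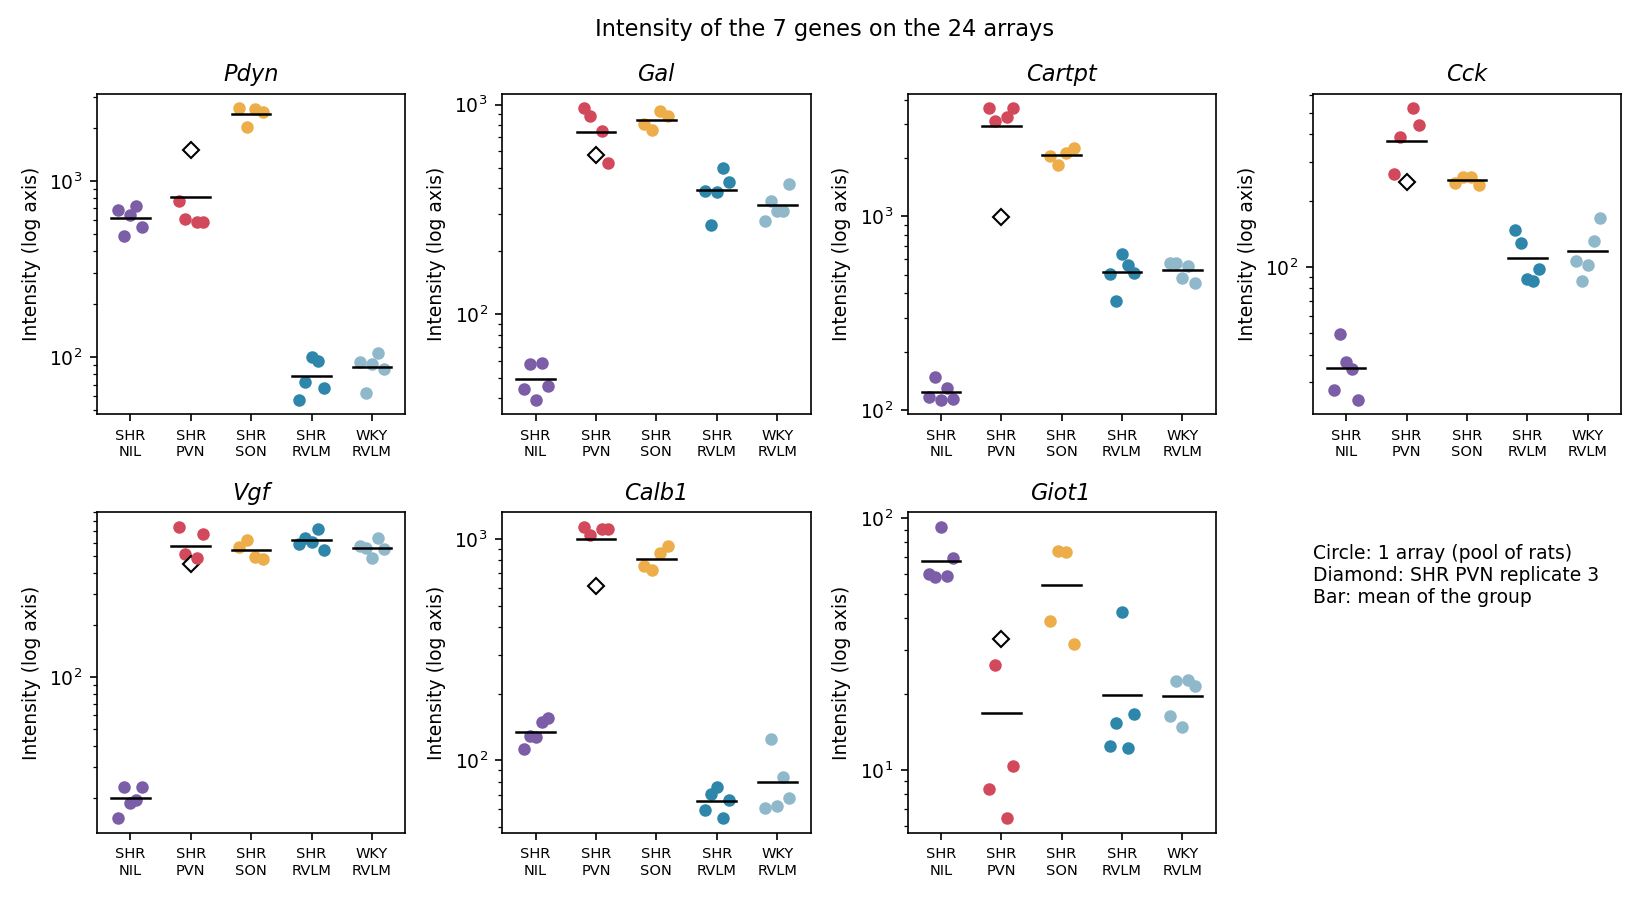
Intensity (log axis) of the 7 genes on the 24 arrays, by strain and structure; each circle is 1 array, the diamond is SHR PVN replicate 3 and the bar is the group mean. Pdyn peaks in the SON at 2019 to 2581, Vgf is lowest in the NIL at 15.2 to 23.0, and Giot1 is highest in the NIL and SON.

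The 2 Pdyn probe sets gave the SON the highest level alike and disagreed on the PVN. The dimmer one read 221, 170, 222 and 160 in the SON, 39.2, 37.1, 28.3, 56.9 and 58.3 in the PVN, and 75.9, 57.6, 79, 99.7 and 75.7 in the NIL. By this probe set the PVN lay below the NIL (log2 −0.81, adjusted p = 0.0175), the opposite sign of the brighter one. PVN array 3 had the highest PVN value by the brighter probe set (1497) and the lowest by the dimmer (28.3). The dimmer probe set is annotated to the reference mRNA of the gene and the brighter to an expressed sequence tag. The fall from SON to PVN was called with either (−1.64 and −2.15), as were the differences of the SON from the NIL (1.98 and 1.33), whereas the order of PVN and NIL depends on the probe set. What separates the probe sets was not tested.

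**Figure D2:**
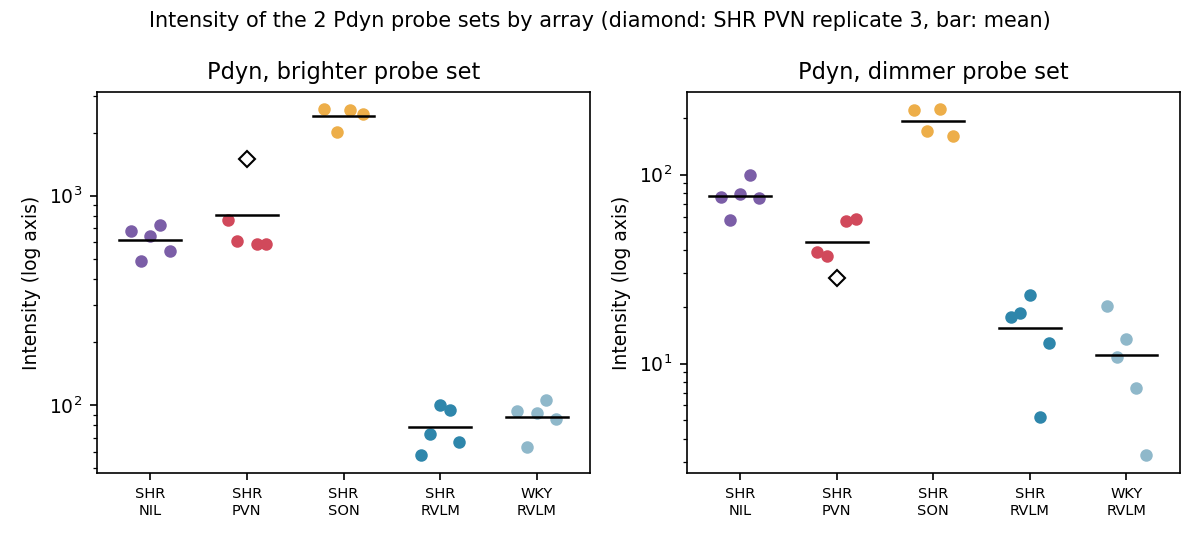
Intensity (log axis) of the brighter (left) and dimmer (right) Pdyn probe set on each array, by group, with the group mean as a bar and SHR PVN replicate 3 as a diamond. The brighter one places PVN array 3 at 1497, above the other PVN arrays, and the dimmer one places it at 28.3, below them.

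Gal, the galanin gene, had overlapping levels in both hypothalamic nuclei. The PVN arrays read 964, 884, 575, 753 and 528 and the SON arrays 807, 760, 933 and 884, so that the SON values lay inside the range of the PVN. The log2 difference, PVN minus SON, was −0.20 (95% interval −0.62 to 0.22, adjusted p = 0.565), which leaves room for differences of up to that size. In the SHR RVLM Gal had 392 ± 84.4 (n = 5), 2.08-fold below the SON (adjusted p = 0.000231). In the NIL it had 44.1, 57.8, 39.2, 58.5 and 45.8, near the median of those arrays. The SON stood 17.5-fold above the NIL (log2 4.13, SE 0.203, adjusted p = 2.05e-13). Galanin is also made by hormone cells of the anterior pituitary. The anterior pituitary hormone gene Gh1 ranged from 693 to 6068 over the same 5 NIL arrays, and the part of such cells in the NIL values of Gal was not tested.

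Cartpt encodes the CART precursor. Its PVN arrays read 3628, 3118, 995, 3270 and 3612, and the SON arrays 2060, 1846, 2137 and 2254. The 4 other PVN arrays lay above every SON array, and PVN array 3 lay below every SON array. With all arrays the log2 difference was 0.39 and did not pass (95% interval −0.15 to 0.93, adjusted p = 0.345), nor with quantile normalization (0.73, adjusted p = 0.0953). Without PVN array 3 it was 0.73 (adjusted p = 0.00141), and with arrayWeights on all arrays it was 0.61 and passed (adjusted p = 0.00393). In the NIL Cartpt was at 113 to 148, 16.8-fold below the SON (log2 4.07, adjusted p = 1.88e-11). In the SHR RVLM it was at 365 to 640, above every NIL array and below every SON array (SON minus RVLM log2 1.95, adjusted p = 3.70e-06). Cartpt was ordered PVN and SON, then RVLM, then NIL.

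Lateral hypothalamic neurons that make melanin-concentrating hormone (Pmch) also express CART in the rat. Pmch and the orexin gene Hcrt were detected together in the PVN pools, with summed intensities of 301 to 4482, against 80.5 to 104 in the SON. Pmch was 259 on PVN array 3 and 2304 to 3736 on the other PVN arrays, while Cartpt was 995 and 3118 to 3628. The share of these cells in the Cartpt values was not tested.

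**Figure D3:**
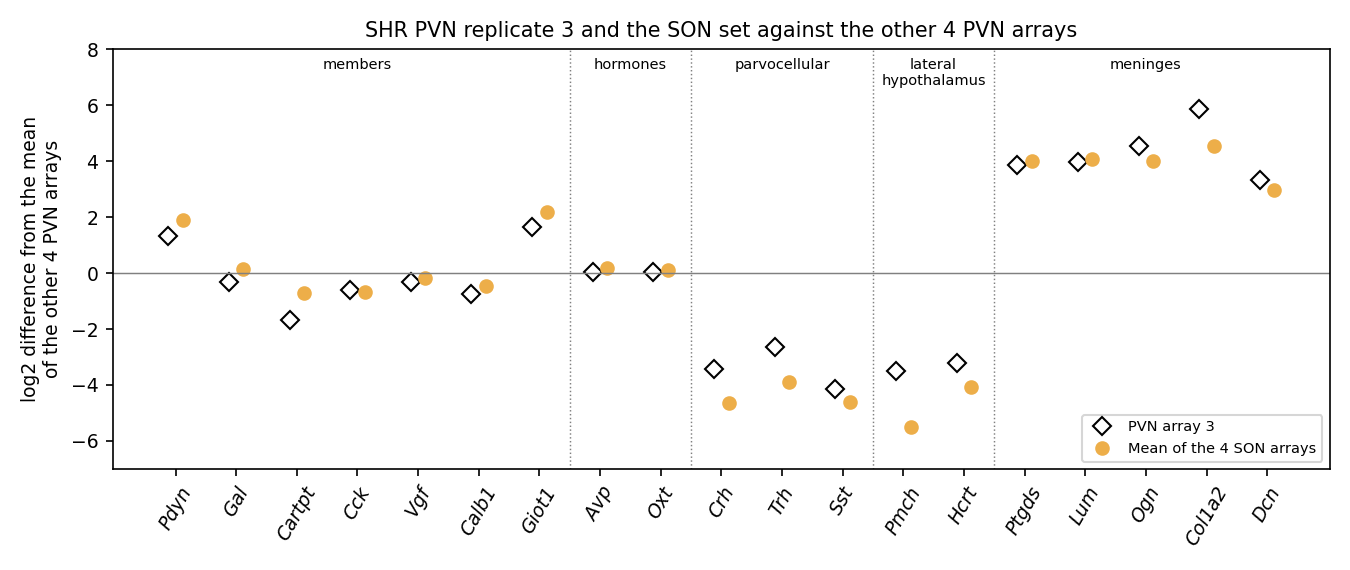
log2 difference of PVN array 3 (diamonds) and of the mean of the 4 SON arrays (circles) from the mean of the other 4 PVN arrays, for the 7 genes, the 2 hormones and marker genes of 3 further cell groups. PVN array 3 is close to the SON for the meningeal Ptgds (3.87, SON 4.01) and the parvocellular Sst (−4.16, SON −4.60), between the SON and the other PVN arrays for the lateral hypothalamic Pmch (−3.51, SON −5.51), near 0 for Avp and Oxt, at 1.32 for Pdyn and −1.69 for Cartpt.

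Cck, the cholecystokinin gene, had 264, 390, 242, 525 and 440 in the PVN and 241, 255, 256 and 235 in the SON. The SON values were tight, with a coefficient of variation of 4.24% against 32.1% in the PVN, and 1 PVN array (PVN array 3) lay within the SON range. The log2 difference of 0.56 missed the threshold with all arrays (95% interval 0.16 to 0.96, adjusted p = 0.0530), and was 0.68 (adjusted p = 0.00906) without PVN array 3. Pseudocounts of 16 and 64, the stricter filter and arrayWeights also brought it under the threshold (adjusted p 0.0309, 0.0193, 0.0437 and 0.00498). In the SHR RVLM Cck had 110 ± 27.0 (n = 5), 2.17-fold below the SON (adjusted p = 6.86e-05), and in the NIL 25.0 to 49.7, below the array median on 4 of 5 arrays. The order was PVN and SON, then RVLM, then NIL (SON minus NIL log2 2.88, adjusted p = 3.43e-11, and 1.66 with a pseudocount of 64).

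Vgf had overlapping levels in the RVLM and both nuclei. Its intensities were 742, 514, 450, 490 and 668 in the PVN, 564, 618, 494 and 482 in the SON, and 587, 636, 604, 722 and 544 in the SHR RVLM. The ranges of these 3 structures overlap, and PVN minus SON (log2 0.10, 95% interval −0.24 to 0.43), SON minus RVLM (−0.28, −0.61 to 0.06) and PVN minus RVLM (−0.18, −0.50 to 0.14) did not pass, with adjusted p of 0.742, 0.171 and 0.352. Leaving out PVN array 1 brought PVN minus RVLM to −0.33 and under the threshold (adjusted p = 0.0446). SON minus RVLM passed with arrayWeights (−0.34, adjusted p = 0.0232) and with these groups alone in the fit (−0.28, adjusted p = 0.0452). Avp, by comparison, was below the array median on all 5 SHR RVLM arrays (17.3 ± 3.45) and had 5056 ± 495 in the SON (n = 4). In the NIL Vgf was 15.2, 23.0, 18.6, 19.5 and 22.9, below the array median on all 5 arrays. The SON exceeded the NIL by 4.79 (SE 0.162, adjusted p = 4.12e-16), and this size is loosely determined because of the low NIL values: with a pseudocount of 64 it was 2.85.

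Calb1 encodes calbindin-D28k, a cytoplasmic calcium buffer found in magnocellular neurons. It had 1137, 1043, 614, 1105 and 1112 in the PVN and 752, 722, 860 and 927 in the SON. As with Cartpt, 4 PVN arrays lay above every SON array and PVN array 3 lay below them all. The log2 difference was 0.30 (95% interval −0.02 to 0.62, adjusted p = 0.204) and 0.45 without PVN array 3 (adjusted p = 0.0116). With arrayWeights on all arrays it was 0.36 (adjusted p = 0.0265). Unlike Gal, Cartpt, Cck and Vgf, its lowest level was in the RVLM, with 54.8 to 75.9 in SHR, and the NIL lay above it at 112 to 156 (log2 0.95, adjusted p = 5.38e-06). The SON was 11.8-fold above the SHR RVLM and 6.12-fold above the NIL (adjusted p = 2.13e-13 and 3.75e-12).

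Giot1, gonadotropin-inducible ovarian transcription factor 1, was the only member with its highest mean in the NIL. It had 59.7, 58.2, 92.5, 58.8 and 69.3 in the NIL and 39.0, 74.3, 73.0 and 31.5 in the SON. In the PVN it had 8.38, 26.0, 33.0, 6.43 and 10.4, below the array median on all 5 arrays. Only 1 PVN array, PVN array 3, reached the range of the SON. The PVN was lower than the SON (log2 −1.86, SE 0.449, adjusted p = 0.00791) and than the NIL (−2.24, adjusted p = 0.000114). It passed the filter on low values, at an intensity of 26.4, through the NIL and SON, and with PVN and SON alone in the fit it lay under the filter and was not tested. The size of both differences is loosely determined at such intensities: a pseudocount of 64 gave −0.53 and −0.70, still called. NIL and SON did not pass (SON minus NIL log2 −0.38, 95% interval −1.31 to 0.55, adjusted p = 0.512), nor did PVN and RVLM (−0.40, adjusted p = 0.464). The SON exceeded the SHR RVLM by 1.46 (adjusted p = 0.0111), with overlapping arrays, since SHR RVLM array 3 read 42.3. The 5 meningeal markers summed to 5671 to 6946 in the NIL, 6335 to 9390 in the SON, 2430 to 3858 in the SHR RVLM and 382 to 7946 in the PVN, where PVN array 3 had the highest sum. The part of meningeal RNA in the Giot1 values was not tested.

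Set side by side, PVN and SON differed in 2 of the 7 genes, Pdyn and Giot1, both lower in the PVN, where 16.1% of 10596 tested genes were called. With these nuclei alone in the fit Giot1 lay under the filter, which left 1 call, Pdyn. Avp and Oxt did not pass in the same comparison (log2 −0.16 and −0.11). These hormones lay at 67.3% to 100% of the highest intensity of their arrays in both nuclei. Leaving out PVN array 3 gave 5 called genes, 2 lower and 3 higher (Cartpt, Cck and Calb1), where 23.0% of all genes were called. The median difference of the 7 genes was 0.10, beside 0.01 over all genes, a value that the alignment of array medians holds near 0.

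Against the NIL, the same genes differed far more. From SON to NIL 6 of 7 were lower in the NIL, all but Giot1, where 51.2% of genes were called. The median of the 7 differences was 2.88, beside −0.03 over all genes. The alignment of array medians holds the value over all genes near 0, so it does not show how much a typical gene differs. Avp and Oxt were lower in the NIL by 2.06 and 1.55 on the same scale, and Pdyn by 1.98. In the SON both hormones lay at 67.3% to 91.2% of the highest intensity of their arrays, and in the NIL at 19.1% to 32.5%. Whether signal near the top limits the size of the hormone differences was not tested. The comparison of PVN with NIL shares the NIL arrays with that of SON with NIL. It gave 5 genes higher and Giot1 lower in the PVN, where 57.1% were called. Giot1 passed the filter through the NIL and SON, where it was high.

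The RVLM holds no magnocellular neurons, and Avp and Oxt were below the array median on all its arrays. Of the 7 genes, 6 were higher in the SON than in the SHR RVLM, all but Vgf, where 45.7% of genes were called. The PVN, with the same RVLM arrays, was higher in 5 (Pdyn, Gal, Cartpt, Cck and Calb1), where 45.6% were called. Between NIL and SHR RVLM all 7 were called, where 67.8% of genes were called, and they parted into groups: Pdyn (2.90), Calb1 (0.95) and Giot1 (1.84) were higher in the NIL, and Gal (−3.08), Cartpt (−2.13), Vgf (−5.06) and Cck (−1.76) were lower. With a pseudocount of 64 the values of Gal, Vgf, Cck, Calb1 and Giot1 shrank to −2.03, −3.06, −0.84, 0.58 and 0.62, all still called. Giot1 passed the filter through the NIL and SON, where it was high, so its calls against the RVLM are not independent of that filter.

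**Figure D4:**
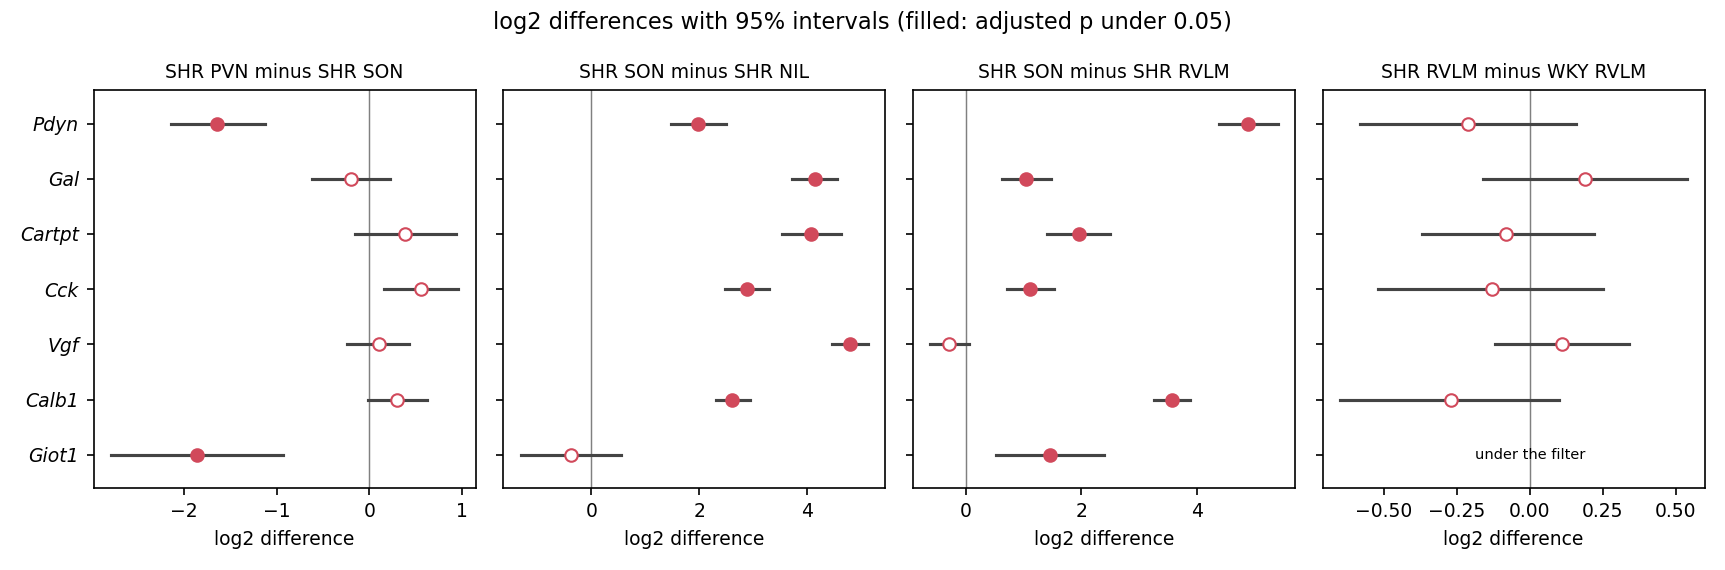
log2 differences (points) with 95% intervals (lines) of the 7 genes in 4 comparisons, filled where the adjusted p is under 0.05; the horizontal scales differ between panels. PVN and SON are set apart by Pdyn (−1.64) and Giot1 (−1.86), SON and NIL by all but Giot1, SON and RVLM by all but Vgf, and the strains by none of the 6 genes tested. Giot1 passed the filter of the structures through the NIL and SON, where it was high.

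The strains were compared in the RVLM, the structure measured in both. Here 0 of 6 tested members passed the limma test at the adjusted threshold, and 0 at an unadjusted p under 0.05. Over 10400 genes 1.41% were called, and 953 had an unadjusted p under 0.05. The arrays of SHR and WKY overlapped for all 7 genes. The largest difference in size, for Calb1, was −0.27 (95% interval −0.65 to 0.10), with 54.8 to 75.9 in SHR and 60.7 to 125 in WKY. For Pdyn the interval was −0.58 to 0.16, for Gal −0.16 to 0.54, for Cartpt −0.37 to 0.22, for Vgf −0.12 to 0.34 and for Cck −0.52 to 0.25. Giot1 lay under the filter, with 19.8 ± 12.7 and 19.6 ± 3.70. The levels of these genes in the 2 strains therefore could not be told apart with 5 pools each, and differences within the intervals remain possible. Strain differences in the nuclei that hold magnocellular neurons were not analysed here.

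The receptors of these peptides were mostly dim. Of 7 listed receptor genes 6 were on the array, and in the fit of the 4 structures 1 passed the filter, Oprk1, the kappa opioid receptor at which dynorphins act. Its intensity was 86.9 to 103 in the PVN, 106 ± 27.9 in the SON (n = 4), 53.8 ± 13.9 in the SHR RVLM and 1.80 ± 0.802 in the NIL (n = 5 each). Its signal was below the array median on all 5 NIL arrays, while Pdyn, the gene of its ligands, had 615 ± 98.3 there. Both are RNA values, and receptor protein on the axons that end in the lobe was not measured. The SON exceeded the NIL in Oprk1 (adjusted p = 3.96e-13), by a size that these data do not fix because of the low NIL signal, and the RVLM by 0.90 (adjusted p = 0.0207). It lay under the filter in the fit without PVN array 3, which gives no call then. With all arrays Oprk1 passed the filter through the structures where it was high, so these calls are not independent of that filter. The galanin receptors Galr1, Galr2 and Galr3 had group means of at most 44.5, and the cholecystokinin receptor Cckbr of at most 34.5.

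Genes that cut and modify peptide precursors were counted in the same way. Of 10 measured processing and granule genes, 2 were higher and 4 lower in the SON than in the NIL, where 51.2% of all genes were called. The prohormone convertase Pcsk2 was at 62.6 ± 9.55 in the SON and 572 ± 98.2 in the NIL (log2 −3.18, adjusted p = 2.22e-13), and the granule proteins Chgb (−2.18) and Chga (−1.75) were lower too. The intermediate lobe makes its own peptide hormones, and the melanotroph markers given above were high in the same arrays. Pcsk2 is itself among those markers, so its value here and their sum are not separate observations. The part of melanotrophs in the values of these genes was not tested. The 2 genes higher in the SON than in the NIL were Tpst1 (log2 1.00, adjusted p = 0.00124) and Pam (0.63, adjusted p = 2.94e-05). Pam is the enzyme that amidates the ends of peptides such as vasopressin, oxytocin, galanin and cholecystokinin. Pam had 2075 ± 257 in the SON, 1445 ± 85.9 in the PVN, 1351 ± 136 in the NIL and 497 ± 25.2 in the SHR RVLM. It was lower in the PVN than in the SON (log2 −0.49, adjusted p = 0.00343), while Scg3 (0.61) and Chga (0.55) were higher. In the strain comparison, where 1.41% of all genes were called, 1 of the 10 passed: Tpst1, a tyrosylprotein sulfotransferase of the kind that sulfates cholecystokinin, with 140 ± 27.9 in SHR and 285 ± 54.5 in WKY (log2 −1.06, adjusted p = 0.000201).

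Among 22 tested genes of a wider magnocellular list, 5 were higher and 3 lower in the PVN than in the SON, where 16.1% of all genes were called. The higher ones included the releasing hormones Crh (3.96 as fitted, against SON values below the array median on all 4 arrays) and Trh (3.37) and the pituitary adenylate cyclase-activating peptide Adcyap1 (1.81), which parvocellular neurons of the PVN also make. Crh passed the filter on low values through the PVN, where it was high (mean 354, against 17.4 in the SON and 4.08 in the NIL). Its call, counted among the 5, is therefore not independent of that filter. The largest fall was in Caprin2, an RNA-binding protein known to bind vasopressin mRNA. It had 1650 ± 124 in the SON, 437 ± 185 in the PVN and 147 ± 9.49 in the NIL (log2 −1.97, PVN minus SON, adjusted p = 2.96e-06). Like the brighter Pdyn probe set, it was highest among the PVN arrays on PVN array 3 (749, against 314 to 467). The dimmer Pdyn probe set had its lowest PVN value on that array (28.3). Without that array the counts were 7 and 3, where 23.0% of all genes were called. From SON to NIL 14 genes of this list were lower in the NIL and 6 higher, where 51.2% of all genes were called.

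Other calcium-binding genes were counted beside Calb1. Of 8 tested genes 5 were higher in the SON than in the NIL and 1 was lower, where 51.2% of all genes were called. Of the 10 on the array, S100g and Necab1 lay under the filter and were not tested. S100g had 344 ± 27 in the NIL and 6.79 ± 2.95 in the SON, and Necab1 had 18.7 ± 5.62 and 31.9 ± 4.92. Calretinin (Calb2) had 945 ± 60.2 in the SON and 30.4 ± 10.3 in the NIL (log2 5.04, adjusted p = 1.23e-15), a size that is loosely determined because all 5 NIL arrays lay below their median. The visinin-like sensor Vsnl1 had 1029 ± 118 and 69.6 ± 18.8 (3.93). In the PVN, Necab3 (0.66) and Hpcal1 (0.60) exceeded the SON, and Calb2 did not pass. Unlike Calb1, Vsnl1 was higher in the SHR RVLM (2449 ± 148) than in either nucleus.

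Finally, the genes whose profile over the 24 arrays was most like each member were listed from 10492 genes by Pearson's r of log2 intensity, as a description. The 24 arrays share 4 structures, so a high r mostly records the same order of structures. Pam was the most alike to Pdyn (r = 0.984, Spearman's rho 0.948), followed by Glce (0.969), a heparan sulfate epimerase, and the kinase-anchoring Akap7 (0.968). Gal was followed by Nell1 (0.986), the receptor of pituitary adenylate cyclase-activating peptide Adcyap1r1 (0.978) and the synaptic vesicle gene Syngr3 (0.975). Cartpt was followed by Cdkl4 (0.969), Mboat7 (0.967) and the G protein regulator Rgs4 (0.965), and Cck by Zdhhc14 (0.958), the amino acid transporter Slc7a3 (0.950) and Cartpt (0.950). Vgf was followed by general neuronal genes such as the tubulin Tubb2b (0.994) and Rab6b (0.992), and by the neurotensin receptor Ntsr2 (0.991), and its rho was lower (0.790, 0.787 and 0.587), as 1 low group sets r there. Calb1 was followed by Caly (0.980), Zcchc12 (0.979) and Ly6h (0.977). Giot1 was followed by the RNA-binding Tial1 (0.905), the meningeal Lum (0.881) and Igfbp2 (0.873), a binding protein of insulin-like growth factors, which had 3453 ± 306 in the NIL, 1492 ± 741 in the SON and 262 ± 473 in the PVN.

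**Figure D5:**
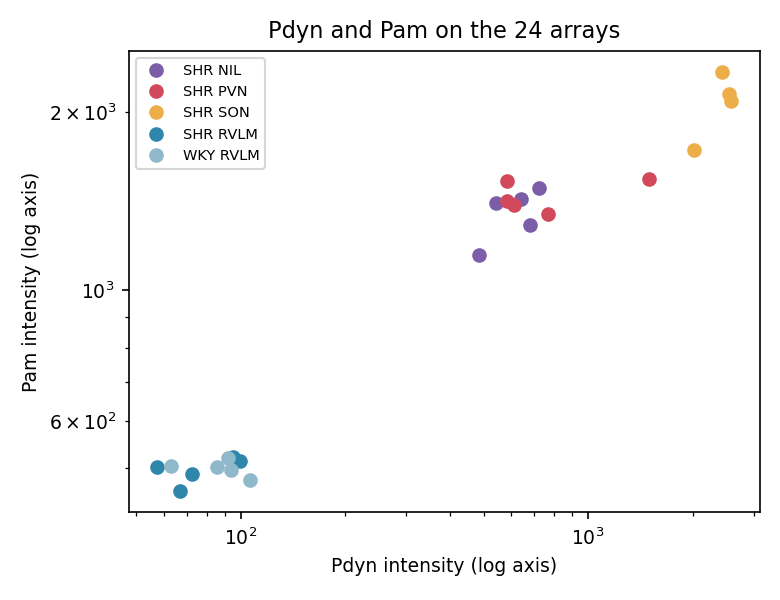
Intensity of Pdyn (horizontal, log axis) and Pam (vertical, log axis) on the 24 arrays, coloured by group. RVLM arrays of both strains lie low on both axes, NIL and PVN arrays in the middle and the 4 SON arrays at the top, with r = 0.984 on the log2 scale.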

How the data were processed

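Labelled RNA of 24 pools was read on Affymetrix rat arrays. The authors deposited 1 linear intensity per probe set and array, from GCOS 1.2 per the submitters' processing notes. The settings of that software and any detection calls are unknown here. Each array had a 2% trimmed mean of 100. Of 31099 probe sets 57 controls were left out, and genes were named from the annotation of the array (20826 probe sets with 1 gene, 436 with several, 9780 with none), with symbols updated through RefSeq gene identifiers.

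Intensities were turned to log2, array medians were aligned, and probe sets with a mean above the 40th percentile of a fit were kept (18625, about 26.4 on the intensity scale). limma 3.58.1 in R 4.3.3 (lmFit, eBayes with trend) fitted the 19 SHR arrays for the structures and the 10 RVLM arrays for the strains. Calls are Benjamini-Hochberg adjusted p under 0.05 over all probe sets kept. Means ± SD are of deposited intensity; log2 differences and folds come from the fit, so a fold differs slightly from the ratio of the means. The code was tested on simulated data. Pools were treated as independent, although rats may have given several structures, and p-values measure the spread between pools. The number of arrays limits precision.

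The members and gene lists were chosen with earlier results of these data known. Named genes were all members, the 3 most alike genes of each, up to 4 called genes per list, and listed genes under the filter where stated. The alternatives were other scaling, pseudocounts, filters, weights, probe sets, arrays in the fit, the replicate number as a block and each array left out; list counts without PVN array 3 were a later addition, chosen after seeing the data. Identical pairs of arrays numbered 0. Figures were drawn with matplotlib 3.10.9.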

Additional observations from a re-analysis of the deposited data

Results flagged for a closer look

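Dixon's test at the 95% level set 4 values apart from the rest of their group, among 35 groups of 4 or 5 arrays (7 genes in 5 groups), and chance sets apart about 1 in 20. Of these, 3 are on PVN array 3: Pdyn at 1497, where the other PVN arrays read 586 to 768, Cartpt at 995 against 3118 to 3628, and Calb1 at 614 against 1043 to 1137. The fourth is Giot1 on SHR RVLM array 3, at 42.3 against 12.2 to 16.6 on the other SHR RVLM arrays.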

How the results depend on the processing

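The number of the 7 genes called stayed within 1.5 times its main value in 148 of 151 alternative fits. The 3 exceptions concern PVN against SON, with 2 called: 5 with arrayWeights, 1 with these 2 groups alone in the fit, where Giot1 lay under the filter, and 2 to 5 when 1 array was left out, the 5 without PVN array 3. Leaving out 1 array gave 5 to 6 genes for PVN against RVLM (5 with all arrays) and the main count in each of the other comparisons. Signs turned in 6 of 1026 values. For Pdyn in PVN minus NIL (0.35) they were −0.81 by the dimmer probe set and −0.23 by the mean of both. The rest were uncalled and near 0: Vgf in PVN minus SON was −0.05 without PVN array 1 (−0.05 to 0.19 over the arrays left out), Cartpt in the strain comparison was 0.01 with arrayWeights and 0.07 without SHR RVLM array 2 (−0.17 to 0.07), and Cck there was 0.02 without WKY RVLM array 5 (−0.25 to 0.02). A further 12 values passed the threshold only under an alternative, and of the called values that an alternative still tested 0 lost it. Of 42 alternative correlations, 13 fell outside the 95% interval of r, all with Spearman's rho in its place. Arrays of the PVN and SON with the same number deviated together at r of 0.08 to 0.17, 2 of the 4 PVN arrays with a partner being closest to their own number, and the labels do not say that numbers pair the pools. With the replicate number as a block 2 of the 7 genes were called in PVN against SON, and the counts of the other comparisons did not change. Signals below the array medians, such as Vgf and Cck in the NIL, Giot1 in the PVN and RVLM and both hormones in the RVLM, limit how well the size of a difference is known.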
